A study of Homo sapiens with 9 samples.

Results

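Mast cell genes, 10 of the 17369 genes in the expression table, were followed through orthotopic tumors of a mouse anaplastic thyroid cancer line. They were listed by symbol: the granule tryptases Tpsab1 and Tpsb2, the chymases Cma1 and Mcpt4, the carboxypeptidase Cpa3, the receptors Kit, Ms4a2 and Fcer1a, the histamine-forming enzyme Hdc and the transcription factor Gata2. The list was selected on measured values, because Tpsab1 was among the genes lower in tumors of C57BL/6 hosts, and the question was whether Tpsab1 stood alone or whether all mast cell genes were lower there. Values of Tpsab1 in C57BL/6 hosts are therefore a description without a test.

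Mast cells are tissue-resident cells of hematopoietic origin that mature in connective tissue and mucosa under stem cell factor acting on its receptor Kit. Their granules store histamine, heparin and large amounts of serine proteases and carboxypeptidase, and crosslinking of the high-affinity IgE receptor releases them. In mice the tryptase encoded by Tpsab1 and the tryptase encoded by Tpsb2 are close paralogs made by connective tissue mast cells, and C57BL/6 mice are known not to make the Tpsab1 protein because of a splicing defect in the gene. That is background, and the genotype of the hosts at Tpsab1 was not tested.

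RNA was measured in 9 tumors, 3 in each of 3 groups. The original/B6129SF1 group was B6129SF1 mice (first-generation hybrids with a C57BL/6 parent) that carried the original TBP3743 cells, a line made from a thyroid tumor with mutant Braf and loss of Trp53 in B6129SF1 mice. The adapted/B6129SF1 group was the same type of host with adapted cells, which were TBP3743 cells recovered after round 3 of passage under the skin of C57BL/6 mice, and the adapted/B6 group was C57BL/6 mice with the adapted cells. Hosts were female mice aged 6 weeks that received 100000 cells into the thyroid, and tumors were collected on day 14. All host mice kept their own immune cells, and every adapted tumor came from a single adapted line. The adapted/B6 and adapted/B6129SF1 tumors thus differed in host strain with the same cells, while the adapted/B6129SF1 and original/B6129SF1 tumors differed in cells within the same strain. The hosts came from different vendors, so strain and vendor cannot be told apart. Labels call the samples epithelial cancer cells. All 6 epithelial genes examined were above the filter described next, whereas 2 of 7 thyroid follicular genes were, with a summed level of 24.9 to 74.4 FPKM over the tumors.

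Values were FPKM, fragment numbers per transcript length that were also scaled per tumor, so levels may be set side by side between genes. Their sum over all genes lay between 457983 and 540514 per tumor. A gene entered the limma test of log2(FPKM + 1) when 3 tumors or more reached 1 FPKM, and differences below are on this scale, which understates changes of weakly expressed genes. A gene was called when its adjusted p was under 0.05 and its absolute log2 difference was above 1. Replicates were labelled as biological replicates, and p-values measure the spread between these tumors. In whole tumors, fewer mast cells and less RNA per mast cell cannot be told apart. Of the 10 genes, 9 passed the filter, of which Tpsab1 and Fcer1a did so only through tumors of B6129SF1 hosts.

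The adapted/B6129SF1 replicate 3 tumor stood apart from the others. It held 35950 FPKM over 12 skeletal muscle genes, or 6.65% of all FPKM, and adapted/B6 replicate 1 held 5992, or 1.31%, against 79.8 to 784 in the other 7 tumors. Adipocyte genes summed to 284 FPKM in adapted/B6129SF1 replicate 3 and to 15.4 to 82.1 in the other tumors. All 12 muscle genes and all 5 adipocyte genes were highest in adapted/B6129SF1 replicate 3. Most of the mast cell genes were also high there, so many comparisons with the adapted/B6129SF1 group are given with and without this tumor. Those given only once include it unless stated.

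Of the 10 genes, Tpsab1 had the widest gap between the adapted groups. Its level was 6.46, 10.9 and 18.6 FPKM in the adapted/B6129SF1 tumors. In the adapted/B6 tumors it was 0.618, 0.841 and 0.439 FPKM. The lowest adapted/B6129SF1 tumor was thus well above the highest adapted/B6 tumor. In the original/B6129SF1 tumors, with B6129SF1 hosts and the other cells, Tpsab1 was 5.04, 4.0 and 6.84 FPKM. None of the 6 tumors from B6129SF1 hosts overlapped the 3 tumors from C57BL/6 hosts. The group means were 11.96 ± 6.13 FPKM in adapted/B6129SF1, 0.633 ± 0.201 in adapted/B6 and 5.29 ± 1.44 in original/B6129SF1 (SD, n = 3 each), and the adapted/B6129SF1 mean was 18.9-fold the adapted/B6 mean. Without adapted/B6129SF1 replicate 3 it was 13.7-fold, and the original/B6129SF1 mean was 8.36-fold the adapted/B6 mean. On the log2 scale the adapted/B6 to adapted/B6129SF1 difference was -2.89 (SE 0.32), or -2.53 without adapted/B6129SF1 replicate 3, and the adapted/B6 to original/B6129SF1 difference was -1.93.

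**Figure D1:**
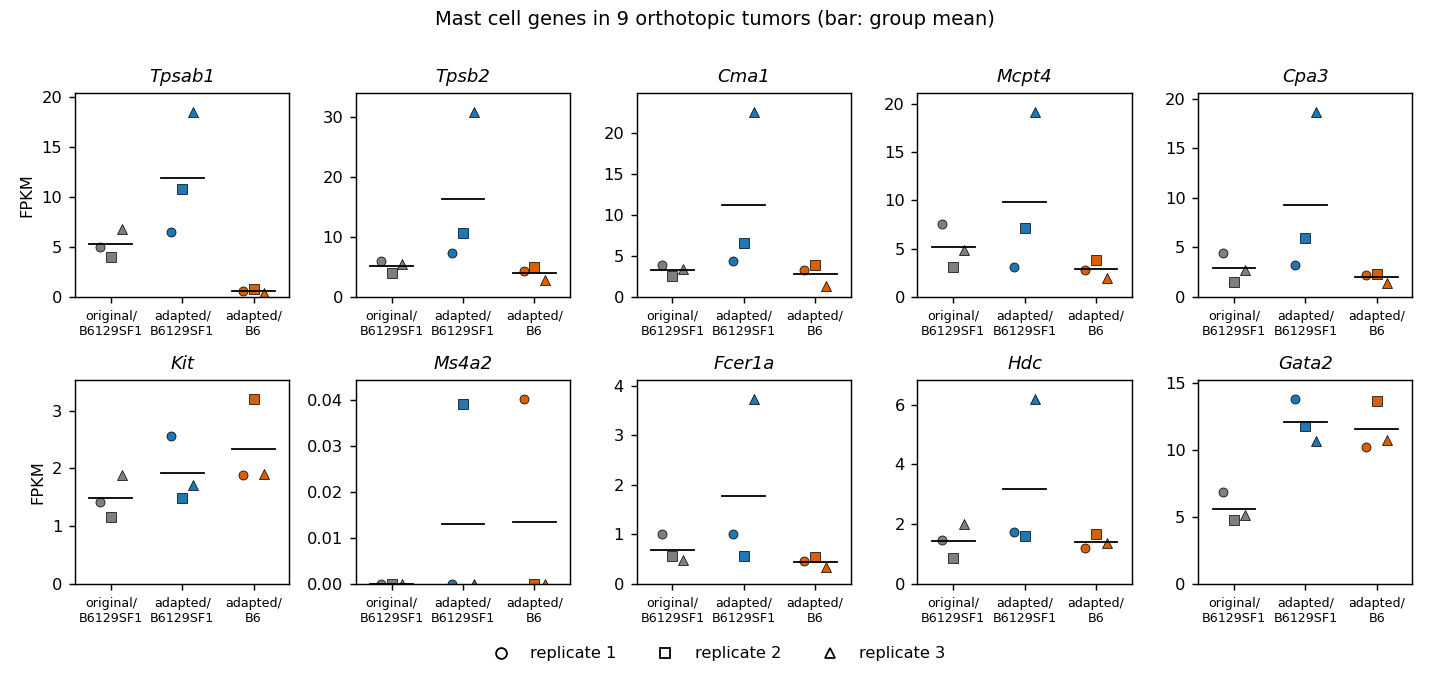
Level of each of the 10 mast cell genes (FPKM, linear axis that starts at 0 in each panel) in the 3 tumors of each group, with symbols for the replicate number and a bar for the group mean. Tpsab1 lies between 0.439 and 0.841 FPKM in adapted/B6 tumors and at 4.0 FPKM or above in the other tumors. The adapted/B6129SF1 replicate 3 tumor is highest for 7 of the genes, against 15.2% of all genes tested.

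Tpsb2, the paralogous tryptase, was present in tumors of both strains. It measured 7.30, 10.6 and 30.9 FPKM in the adapted/B6129SF1 tumors and 4.32, 5.02 and 2.77 FPKM in the adapted/B6 tumors. In the original/B6129SF1 tumors it measured 6.05, 4.02 and 5.50 FPKM. The adapted/B6 tumors lay below all adapted/B6129SF1 tumors but overlapped the original/B6129SF1 tumors. The adapted/B6 to adapted/B6129SF1 difference was -1.56 (SE 0.44) and missed the threshold in limma (adjusted p = 0.602). Without adapted/B6129SF1 replicate 3 it was -0.99 (limma adjusted p = 0.618). The adapted/B6 to original/B6129SF1 difference was -0.31 (SE 0.44, limma adjusted p = 0.713).

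The level of Tpsab1 relative to Tpsb2 did not overlap between the host strains. Tpsab1 made up 45.4, 49.9 and 55.4% of the summed FPKM of both tryptases in the original/B6129SF1 tumors, and 46.9, 50.6 and 37.5% in the adapted/B6129SF1 tumors. In the adapted/B6 tumors it made up 12.5, 14.3 and 13.7%. The ratio of Tpsab1 to Tpsb2 was 0.600 to 1.24 in tumors of B6129SF1 hosts and 0.143 to 0.167 in tumors of C57BL/6 hosts, and the lowest tumor of the former was 3.59-fold the highest of the latter. The adapted/B6129SF1 replicate 3 tumor, in which both tryptases were highest, had the lowest ratio among the B6129SF1 hosts, and it lay above every C57BL/6 tumor. Between adapted/B6129SF1 and original/B6129SF1 tumors, which share the host strain, the ratios of Tpsab1 to Tpsb2 overlapped, and a two-sided exact permutation test gave p = 0.5, or 0.708 when adjusted over 17 such tests. The adapted/B6129SF1 values of Tpsab1 also entered its selection, so nothing is read from this p. The paralogs are similar in sequence and how reads were divided between them is uncertain, and the reads were aligned to the mm10 genome, which is that of C57BL/6J.

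**Figure D2:**
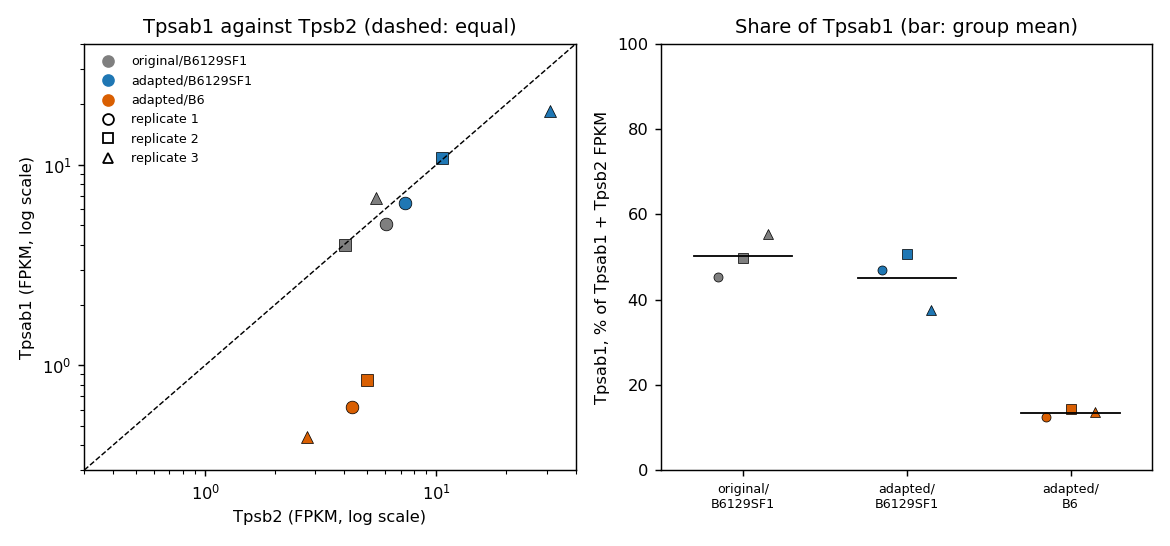
Left, Tpsab1 against Tpsb2 in each tumor (FPKM, both axes logarithmic, dashed line for equal levels), and right, Tpsab1 as a percentage of the summed FPKM of both genes (axis from 0, bars for group means). The 6 tumors of B6129SF1 hosts lie near the line of equal levels, with shares of 37.5 to 55.4%, and the 3 tumors of C57BL/6 hosts lie below it, with shares of 12.5 to 14.3%.

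Tpsab1 was also set against more granule genes. Tpsab1 divided by the sum of Tpsb2, Cma1, Mcpt4 and Cpa3 was 0.231, 0.357 and 0.415 in the original/B6129SF1 tumors and 0.359, 0.359 and 0.203 in the adapted/B6129SF1 tumors. It was 0.0488, 0.0556 and 0.0589 in the adapted/B6 tumors. Each adapted/B6 tumor was thus below each of the 6 tumors of B6129SF1 hosts when Tpsab1 was set against these 4 genes of the same tumor.

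Cma1, a chymase of connective tissue mast cells, measured 4.36, 6.56 and 22.6 FPKM in adapted/B6129SF1 and 3.30, 3.93 and 1.30 FPKM in adapted/B6 tumors. It measured 3.89, 2.55 and 3.44 FPKM in original/B6129SF1 tumors. The adapted groups did not overlap, but the difference of -1.43 (SE 0.51) missed the threshold in limma (adjusted p = 0.729) and was -0.80 without adapted/B6129SF1 replicate 3. Cpa3, the carboxypeptidase stored with the chymases, measured 3.23, 5.92 and 18.7 FPKM in adapted/B6129SF1 tumors. It measured 2.25, 2.36 and 1.39 FPKM in adapted/B6 and 4.40, 1.54 and 2.69 FPKM in original/B6129SF1 tumors. Again the adapted groups did not overlap, and the difference was -1.49 (SE 0.51, limma adjusted p = 0.718) with all tumors and -0.87 without adapted/B6129SF1 replicate 3.

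Mcpt4, the other chymase, measured 3.13, 7.16 and 19.2 FPKM in adapted/B6129SF1 and 2.80, 3.81 and 1.99 FPKM in adapted/B6 tumors, which overlapped. It measured 7.51, 3.07 and 4.85 FPKM in original/B6129SF1 tumors. The difference between adapted/B6 and adapted/B6129SF1 was -1.21 (SE 0.52, limma adjusted p = 0.789), and -0.61 without adapted/B6129SF1 replicate 3. The share of Mcpt4 in the granule protease sum did not overlap between some of the groups. Whether Mcpt4 differed in this from the other 3 proteases was not tested. Of the summed FPKM of Tpsb2, Cma1, Mcpt4 and Cpa3, it took 34.4, 27.5 and 29.4% in the original/B6129SF1 tumors, 17.4, 23.7 and 21.0% in adapted/B6129SF1 and 22.1, 25.2 and 26.7% in adapted/B6. The original/B6129SF1 shares lay above those of both adapted groups without overlap, at the smallest exact permutation p that 3 against 3 tumors allow (p = 0.1, and 0.486 adjusted over 17 tests). Shares of Tpsb2, Cma1 and Cpa3 overlapped in every pair of groups.

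Summed over Tpsb2, Cma1, Mcpt4 and Cpa3, the granule genes reached 18.0, 30.2 and 91.4 FPKM in adapted/B6129SF1 tumors and 12.7, 15.1 and 7.45 FPKM in adapted/B6 tumors. The original/B6129SF1 tumors had 21.9, 11.2 and 16.5 FPKM and overlapped both adapted groups. Between the adapted groups the exact permutation test gave p = 0.1, the smallest possible, and 0.486 after adjustment over 17 tests. In the other muscle-rich tumor, adapted/B6 replicate 1, which held less muscle RNA and had the other host strain, the granule sum was 12.7 FPKM. The part of adjoining muscle, fat and connective tissue in the level of adapted/B6129SF1 replicate 3 was not tested.

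**Figure D3:**
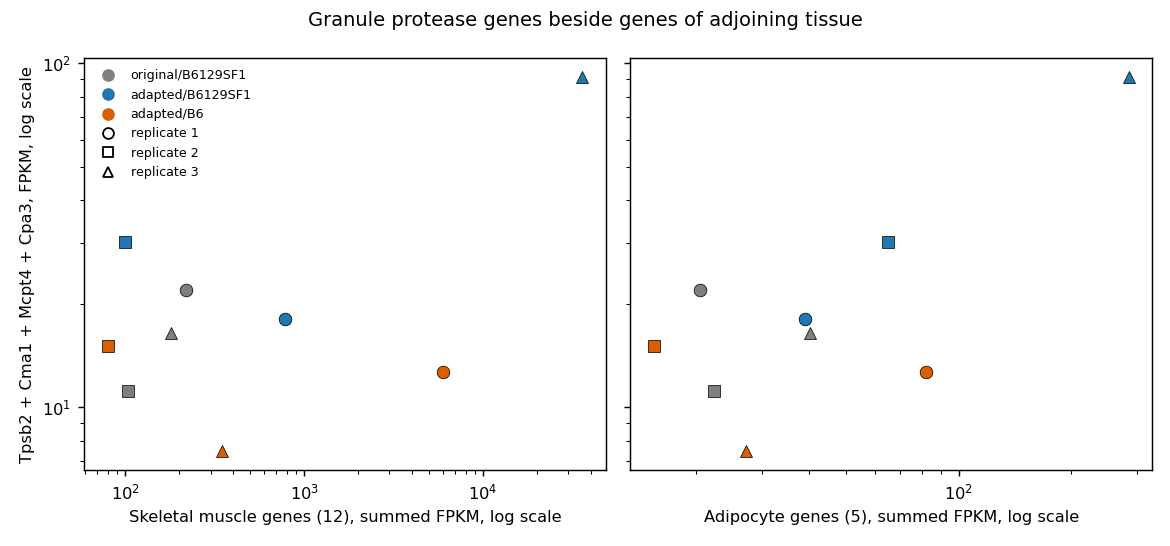
Summed FPKM of Tpsb2, Cma1, Mcpt4 and Cpa3 in each tumor against the summed FPKM of 12 skeletal muscle genes (left) and of 5 adipocyte genes (right), all axes logarithmic. The adapted/B6129SF1 replicate 3 tumor is highest on every axis (91.4 FPKM of granule genes), while adapted/B6 replicate 1, second highest for muscle and adipocyte genes, has 12.7 FPKM of granule genes.

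The receptor genes did not share one pattern. Kit, the receptor for stem cell factor, measured 1.42, 1.16 and 1.88 FPKM in original/B6129SF1, 2.55, 1.48 and 1.71 FPKM in adapted/B6129SF1 and 1.89, 3.21 and 1.91 FPKM in adapted/B6 tumors. Its adapted/B6 to adapted/B6129SF1 difference was 0.19 (SE 0.21, limma adjusted p = 0.921), with the higher mean in C57BL/6 hosts. Fcer1a, the IgE-binding chain of the high-affinity receptor, was at 3.74 FPKM in adapted/B6129SF1 replicate 3 and between 0.346 and 1.01 FPKM in the other 8 tumors. Its adapted/B6 to adapted/B6129SF1 difference was -0.77 (SE 0.37), and -0.30 without adapted/B6129SF1 replicate 3, with no p given because the gene entered the test only through tumors of B6129SF1 hosts. Ms4a2, the beta chain of the same receptor, was listed at 0 in 7 of 9 tumors, and the other values were 0.039 FPKM in adapted/B6129SF1 replicate 2 and 0.040 FPKM in adapted/B6 replicate 1. Below the filter, Ms4a2 had no limma test, and the exact permutation test gave p = 1 in each of the 3 comparisons.

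Hdc, which makes histamine from histidine, measured 1.73, 1.59 and 6.20 FPKM in adapted/B6129SF1 and 1.20, 1.68 and 1.36 FPKM in adapted/B6 tumors. It measured 1.48, 0.874 and 1.99 FPKM in original/B6129SF1 tumors, and the groups overlapped. The adapted/B6 to adapted/B6129SF1 difference was -0.62 (SE 0.37, limma adjusted p = 0.854) and -0.14 without adapted/B6129SF1 replicate 3.

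Gata2, a transcription factor of mast cells that endothelial and blood progenitor cells also express, was higher in tumors of adapted cells in both host strains than in tumors of original cells. It measured 6.85, 4.76 and 5.18 FPKM in original/B6129SF1 tumors. It measured 13.8, 11.8 and 10.7 FPKM in adapted/B6129SF1 and 10.3, 13.7 and 10.7 FPKM in adapted/B6 tumors. Both adapted groups lay above the original/B6129SF1 group without overlap, and they overlapped each other. Gata2 rose by 1.00 in adapted/B6129SF1 (SE 0.16, limma adjusted p = 0.0109) and by 0.93 in adapted/B6 (SE 0.16, limma adjusted p = 0.0125) relative to original/B6129SF1, both comparisons with the same original/B6129SF1 tumors. Both were just under the difference a call required, and the latter had an adjusted p above 0.05 in limma without original/B6129SF1 replicate 3 (0.0562) or adapted/B6 replicate 3 (0.0502). By adjusted p alone, 8.28% of genes tested passed in the former comparison and 6.75% in the latter. The summed level of 7 endothelial genes was 58.0 to 75.0 FPKM in original/B6129SF1, 58.7 to 95.8 in adapted/B6129SF1 and 69.8 to 86.3 in adapted/B6 tumors, and its part in Gata2 was not tested.

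In the comparison of strains with the same cells, 3 of 10263 genes were called (0.0292%), all lower in adapted/B6. One was Tpsab1, on which the list was selected, so nothing is read from its call. That call held under 6 of 17 alternative ways of processing, described below. Between adapted/B6 and original/B6129SF1, Tpsab1 was called under 15 of 17. The list was selected on low Tpsab1 values in C57BL/6 hosts, so nothing is read from these calls either. None of the 8 other mast cell genes tested was called by limma, and 4 of them (Tpsb2, Cma1, Mcpt4 and Cpa3) had an unadjusted p under 0.05, as had 6.27% of all genes tested. Fcer1a is among the 8, and nothing is read from its test. The adapted/B6 tumors lay below all adapted/B6129SF1 tumors for Tpsb2, Cma1 and Cpa3 among the other genes, against 5.42% of all genes tested. They did so for Fcer1a too, which passed the filter only through tumors of B6129SF1 hosts and is not read against that share. Over the 9 genes other than Tpsab1, the median difference was -0.77 with 7 lower, against a median of 0.01 over all genes tested. Without adapted/B6129SF1 replicate 3 the median was -0.30, with 8 lower, and every one of the 9 was closer to 0 than the -2.53 of Tpsab1. The 8 lower genes include Ms4a2, which was listed at 0 in 7 of 9 tumors. Both medians are the value of Fcer1a.

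**Figure D4:**
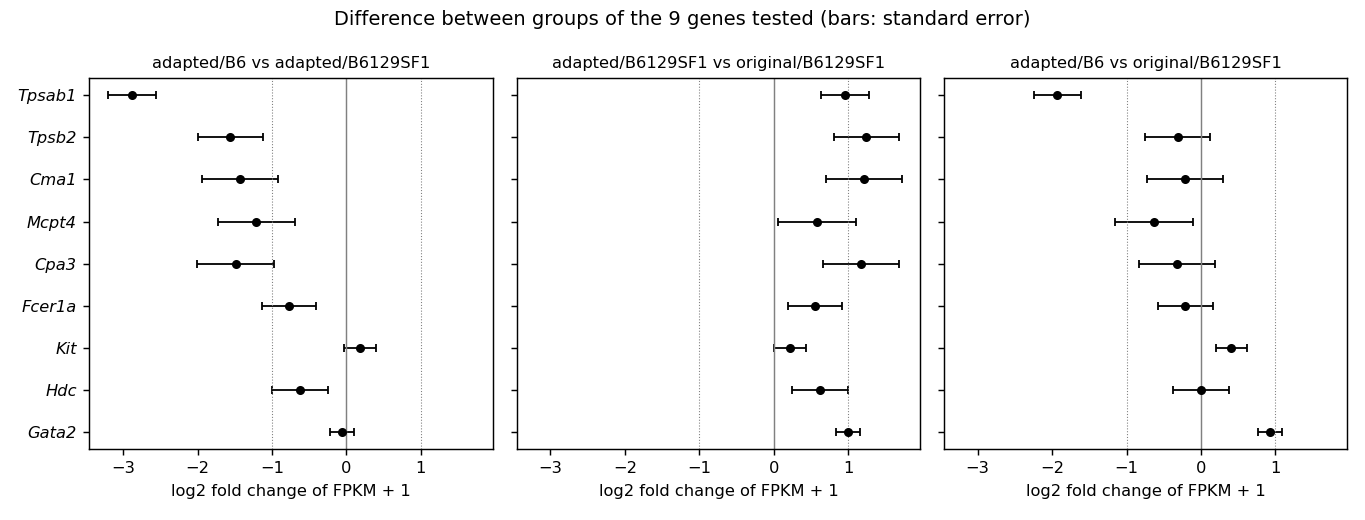
Difference between each pair of groups in log2(FPKM + 1) for the 9 genes tested, with bars for the standard error and dotted lines at -1 and 1. Tpsab1 is at -2.89 between adapted/B6 and adapted/B6129SF1 and at -1.93 between adapted/B6 and original/B6129SF1, where the other genes lie between -0.63 and 0.93.

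Between adapted/B6129SF1 and original/B6129SF1 tumors, which share the host strain, limma called no mast cell gene, against 3.22% of all genes tested, and 5 of the 9 had an unadjusted p under 0.05, against 26.5%. All 9 genes other than Tpsab1 had higher means in adapted/B6129SF1, Ms4a2 only through 0.039 FPKM in replicate 2. Their median difference was 0.62, or 0.27 without adapted/B6129SF1 replicate 3, against a median of -0.03 over all genes tested. Tpsab1 was higher by 0.96 (SE 0.32), which missed the threshold in limma (adjusted p = 0.103), and the difference was 0.60 without adapted/B6129SF1 replicate 3. It passed without adapted/B6129SF1 replicate 1, at 1.30 (limma adjusted p = 0.0331). The adapted/B6129SF1 values of Tpsab1 also entered its selection. Nothing is therefore read from its p-values here, or from its place among the genes with an unadjusted p under 0.05. Tpsb2 was higher by 1.25 (SE 0.44, limma adjusted p = 0.114), Cma1 by 1.21 (SE 0.51, limma adjusted p = 0.172) and Cpa3 by 1.17 (SE 0.51, limma adjusted p = 0.186). Without adapted/B6129SF1 replicate 3 these differences were 0.68 for Tpsb2, 0.58 for Cma1 and 0.55 for Cpa3. All adapted/B6129SF1 tumors lay above all original/B6129SF1 tumors for Tpsb2, Cma1 and Gata2 among the 9, against 13.6% of all genes tested. This comparison and that of the strains share the adapted/B6129SF1 tumors.

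Between adapted/B6 and original/B6129SF1 tumors both cells and hosts differed. None of the 8 genes tested other than Tpsab1 was called by limma, against 3.09% of all genes tested, and 1 of them (Gata2) had an unadjusted p under 0.05, against 24.4%. Fcer1a, among the 8, passed the filter only through tumors of B6129SF1 hosts, so nothing is read from its test. The median over the 9 genes was -0.21, with 6 lower, and -0.03 over all genes tested. Tpsab1 was the one gene of the 10 whose adapted/B6 tumors all lay below the original/B6129SF1 tumors, as did 17.9% of all genes tested. The list was selected on Tpsab1, so it is not read against that share. For Kit and Gata2 all adapted/B6 tumors lay above the original/B6129SF1 tumors, against 14.9% of all genes tested. The 4 granule genes differed by -0.22 (Cma1) to -0.63 (Mcpt4), with limma adjusted p from 0.504 to 0.831.

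Likeness between genes over the 9 tumors, which share depth and tissue makeup, was described by Pearson's r of log2(FPKM + 1). The genes most like Cpa3 included the granule proteases, with Tpsb2 at 0.98 (0.93 without adapted/B6129SF1 replicate 3), Cma1 at 0.97 (0.88) and Mcpt4 at 0.96 (0.88). The other genes among the nearest 5 were P2rx5 (0.96) and Exosc3 (0.95). Fcer1a ranked 11 and Hdc ranked 16 in likeness to Cpa3, but their r of 0.90 and 0.89 was 0.56 and 0.48 without adapted/B6129SF1 replicate 3. Tpsab1 ranked 116 (0.78), while Gata2 (0.23) and Kit (-0.14) ranked 2775 and 6069.

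The genes most like Tpsab1 were not mast cell proteases. They were Lilra6 (0.95), Gdpd3 (0.94), Ctse (0.92), Pira2 (0.92) and Rrad (0.92). Lilra6 and Pira2 belong to a family of leukocyte immunoglobulin-like receptors. Lilra6 measured 0.564 to 0.863 FPKM in adapted/B6 and 3.19 to 7.26 FPKM in the tumors of B6129SF1 hosts. Gdpd3 measured 0.821 to 1.63 FPKM in adapted/B6 and 2.62 to 13.4 FPKM in the tumors of B6129SF1 hosts. Lilra6 (difference -2.06) and Gdpd3 (difference -2.36, limma adjusted p = 0.0142) were the other genes called between the strains. No p is given for Lilra6, which like Fcer1a entered the test only through tumors of B6129SF1 hosts. Tpsab1 was selected on its difference between hosts, so likeness to it is not separate evidence of such a difference. Of all genes tested, 1.98% had every adapted/B6 tumor below all 6 tumors of B6129SF1 hosts. Tpsab1 was the 1 gene of the 10 among them, which its selection on low values in C57BL/6 hosts favored, so nothing is read from it.

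Beyond these genes, a list of 26 other genes used by mast cells, many of them shared with other leukocytes, held 25 in the table and 18 that were tested. None of the 18 was called by limma between adapted/B6 and adapted/B6129SF1 (0.0292% of all genes tested), and 4 had an unadjusted p under 0.05 (22.2%, against 6.27% of all genes tested), with 9 higher and 9 lower and a median difference of 0.09. Between adapted/B6 and original/B6129SF1 limma called none either (3.09% of all genes tested), and 3 had an unadjusted p under 0.05 (16.7%, against 24.4%). Between adapted/B6129SF1 and original/B6129SF1, 8 had an unadjusted p under 0.05 (44.4%, against 26.5% of all genes tested). The one call in this comparison, against 3.22% of all genes tested, was Il1rl1, the receptor for interleukin 33, which fell by 3.63 in adapted/B6129SF1 relative to original/B6129SF1 (SE 0.54, limma adjusted p = 0.00833), from 113, 28.6 and 136 FPKM to 5.16, 4.12 and 6.76 FPKM. It measured 13.96, 17.4 and 31.4 FPKM in adapted/B6 tumors. Of the 25 genes in the table, 3 (Ltc4s, Mrgprb2 and Tph1) had every adapted/B6 tumor below all adapted/B6129SF1 tumors, as had 5.42% of all genes tested. Mrgprb2 and Tph1 were below 1 FPKM in every tumor and were not tested. For 2 of the 25 (Il1rl1 and Rab27b) every adapted/B6 tumor lay above all adapted/B6129SF1 tumors.

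Proteases of mucosal mast cells were described beside these. Mcpt1, a chymase of mucosal mast cells, was listed at 0 in adapted/B6129SF1 replicate 3, the tumor with the highest Cpa3, and at 0.172 to 3.49 FPKM in the other tumors. Mcpt2, its neighbor in the family, was at 0.317 FPKM in that tumor, at 5.98 FPKM in adapted/B6129SF1 replicate 2, which had the second highest Cpa3, and at 1.11 to 6.55 FPKM in the other tumors. Mrgprb2, a receptor of connective tissue mast cells, was highest in adapted/B6129SF1 replicate 3, at 0.495 FPKM against 0 to 0.211 FPKM in the others. Mrgprb2 was thus low, below 1 FPKM in every tumor, whereas Mcpt1 reached 1 FPKM in 3 tumors and Mcpt2 in 8.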

How the data were processed

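RNA from 9 tumors was measured, and groups and replicate numbers came from the sample labels. The deposited values were FPKM, made by the authors with Cuffnorm for all tumors together after FastQC and alignment to mm10 with HISAT2, and the authors tested genes with Cuffdiff. The annotation and the Cuffnorm scaling are not given in the sources used here. FPKM are not counts, so the depth is unknown and the number of tumors limits the precision.

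Values were taken as log2(FPKM + 1). A limma model (version 3.58.1, R 4.3.3) of all 3 groups was fitted to the 10263 genes that reached 1 FPKM in 3 tumors or more, with Benjamini-Hochberg adjustment over these genes. Single values were compared with exact two-sided permutation tests (SciPy 1.17.1). The procedure was tested on simulated data. The members and gene lists were chosen with earlier results of these data known. Other genes named were those of the lists, the 5 genes most correlated with Tpsab1, the 5 with Cpa3 and the other genes called between the adapted groups. Alternatives were quantile and upper quartile scaling, a pseudocount of 0.1, other filters, only the groups compared, a replicate block, calls by adjusted p alone and omission of single tumors. Omission of both muscle-rich tumors was chosen after seeing the data. Sequences and gene coordinates were not used here.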

Additional observations from a re-analysis of the deposited data

How the results depend on the processing

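Under the alternatives, 481 single-gene values kept direction and threshold side or moved by less than the replicate SD. Another 5 moved further, 11 newly passed and 13 reversed. Lost Tpsab1 calls in C57BL/6 hosts were not counted. Genes called between adapted/B6 and adapted/B6129SF1 numbered 3 (643 at an unadjusted p under 0.05), 1 with no filter on low values, 0 with only the groups compared in limma (615 unadjusted) and 0 with a replicate block (543 unadjusted). Leaving out single tumors gave 0 to 6, with 1 without original/B6129SF1 replicate 2 or 3 or adapted/B6 replicate 1, 6 without adapted/B6129SF1 replicate 1 and 0 without adapted/B6 replicate 3 (305 unadjusted). Calls by adjusted p alone were 850 between adapted/B6129SF1 and original/B6129SF1 and 693 between adapted/B6 and original/B6129SF1, against 330 and 317. Leaving out single tumors gave 150 to 350 and 154 to 343, lowest without original/B6129SF1 replicate 3 and adapted/B6 replicate 3. The second comparison kept 184 without original/B6129SF1 replicate 3.

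The median adapted/B6 to adapted/B6129SF1 difference of the 9 genes other than Tpsab1 was -1.38 with a pseudocount of 0.1, -0.31 without both muscle-rich tumors and -0.30 to -1.09 without single tumors. The median between adapted/B6 and original/B6129SF1 was 0.01 without adapted/B6 replicate 3. Tpsab1 was at -3.95 with a pseudocount of 0.1. Gata2 was called under 6 of 17 alternatives in adapted/B6129SF1 relative to original/B6129SF1 (1.02 with upper quartile scaling, 1.11 with a pseudocount of 0.1, 1.08 without both muscle-rich tumors, and 1.13 without original/B6129SF1 replicate 1, 1.01 without adapted/B6129SF1 replicate 2 and 1.08 without adapted/B6129SF1 replicate 3). It was called under 4 of 17 in adapted/B6 relative to original/B6129SF1 (1.04 with a pseudocount of 0.1, 1.01 without both muscle-rich tumors or without adapted/B6 replicate 1, and 1.06 without original/B6129SF1 replicate 1), with limma adjusted p from 0.0109 to 0.0562, above 0.05 without original/B6129SF1 replicate 3 (0.0562) or adapted/B6 replicate 3 (0.0502). Reversals were small and none was called. Kit between adapted/B6129SF1 and original/B6129SF1 was -0.043 with quantile scaling. Hdc between adapted/B6 and original/B6129SF1 was 0.0077 with upper quartile scaling, 0.021 with a pseudocount of 0.1, 0.064 without both muscle-rich tumors and -0.18 to 0.16 without single tumors. Mcpt4 between adapted/B6129SF1 and original/B6129SF1 was -0.018 without both muscle-rich tumors and -0.018 to 1.13 without single tumors, lowest without adapted/B6129SF1 replicate 3. Without single tumors, Gata2 between the adapted groups ranged from -0.18 to 0.031 and Cma1 between adapted/B6 and original/B6129SF1 from -0.44 to 0.11. The cause was not tested.

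Tumors of the same replicate number came from different animals, and their deviations from the group means correlated at -0.39 to 0.61, over 0.1 in 3 of 9 pairs, with the own number the best match in 5 of 18 cases. The numbers were therefore not used to pair the tumors in the main model. Whether tumors of the same number shared a batch was not tested. A replicate block gave 0 calls between the adapted groups. Against original/B6129SF1 it gave 242 for adapted/B6129SF1 and 245 for adapted/B6.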

Other observations

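Among 13 cytokines and growth factors that act on mast cells, 7 were tested and 1 was called, between adapted/B6129SF1 and original/B6129SF1, where 3.22% of all genes tested were called. In that comparison 3 of the 7 had an unadjusted p under 0.05 (42.9%, against 26.5% of all genes tested). Il33, an alarmin released by damaged tissue cells, rose by 1.49 on the log2 scale in adapted/B6129SF1 relative to original/B6129SF1 (SE 0.25, limma adjusted p = 0.0129). It measured 2.29, 2.08 and 2.62 FPKM in original/B6129SF1, 7.79, 6.89 and 10.7 FPKM in adapted/B6129SF1 and 3.58, 8.44 and 5.69 FPKM in adapted/B6 tumors. Its adapted/B6 to original/B6129SF1 difference was 0.99 (SE 0.25, limma adjusted p = 0.0522). Kitl, which encodes stem cell factor, was 14.4 to 26.4 FPKM over the 9 tumors and was called in no comparison (adapted/B6 to adapted/B6129SF1 difference 0.10, SE 0.19, limma adjusted p = 0.947). Il3 and Il9 were listed at 0 in all tumors.

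Markers of basophils, which share the IgE receptor with mast cells, were uneven. Mcpt8 was at most 0.627, Prss34 at most 0.32, Cd200r3 at most 0.205 and Ccr3 at most 0.482 FPKM in any tumor. Il3ra was at 4.34 to 9.34 FPKM and Itga2 at 0.541 to 3.58 FPKM. These 2 were the basophil genes tested, and limma called neither in any comparison. Of the 2, 0, 2 and 1 had an unadjusted p under 0.05 in the order adapted/B6 to adapted/B6129SF1, adapted/B6129SF1 to original/B6129SF1 and adapted/B6 to original/B6129SF1. In the same order, 6.27%, 26.5% and 24.4% of all genes tested had one. No gene of the 8 on an eosinophil list was above the filter. Genes expressed by leukocytes in general, 5 on the list, summed to 283 to 314 FPKM in original/B6129SF1 tumors. They summed to 432 to 632 FPKM in adapted/B6129SF1 and 355 to 700 FPKM in adapted/B6 tumors. Of these 5 genes, only Cd52 was called (adapted/B6129SF1 relative to original/B6129SF1, difference 1.12, limma adjusted p = 0.0491). In that comparison 330 of all 10263 genes tested were called. Relative to original/B6129SF1, Cd52 differed by 1.145 in adapted/B6, which narrowly missed the threshold in limma (adjusted p = 0.0512). A list of 6 genes of melanocytes and interstitial cells of Cajal, which also express Kit, summed to 14.4 to 47.1 FPKM over the tumors, of which Ano1 made up 14.1 to 46.9 FPKM. Pmel was at 0.0835 to 0.294 FPKM, and Tyr was listed at 0 in every tumor. The part of such cells in Kit was not tested.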
